A study of Mus musculus with 6 samples.

Results

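The subject of this account is a group of 7 genes that are known from reactive or disease-associated oligodendrocytes, with C4b left aside as a comparator: Serpina3n, Il33, Klk6, Sgk1, Anln, Car2 and Apod. They were taken by symbol, and each of the 7 had 1 row among the 32285 genes counted in each of the 6 libraries. The libraries hold nuclei of the frontal lobe of Tg-SwDI mice, 1 library per mouse, profiled by droplet-based 3′ single-nucleus RNA sequencing, which counts transcripts by unique molecular identifiers (UMIs). All 6 mice carried a transgene for human amyloid precursor protein that holds the Swedish, Dutch and Iowa mutations, which gives amyloid in brain vessels; 3 had wild-type Trem2 (SwDI/TWT) and 3 were Trem2 knockouts (SwDI/TKO), and no mouse without the transgene was analysed here. The sources used here give no age, sex or Trem2 allele. The comparison asks whether transcripts of these genes differ in a given cell class when Trem2, a lipid-sensing receptor of microglia, is lost.

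Oligodendrocytes wrap axons in myelin, and in injured or amyloid-bearing brain a fraction of them takes up a transcript profile with complement, protease inhibitor and antigen presentation genes. Serpina3n encodes a secreted serine protease inhibitor of that profile, and Il33 an interleukin of the IL-1 family that is kept in the nucleus and acts as an alarm signal when cells are damaged. Klk6 is a secreted kallikrein protease able to cleave myelin proteins, and Sgk1 is a kinase whose transcription is raised by glucocorticoids. Anln encodes anillin, an actin-binding scaffold that holds septin filaments in myelin, Car2 a cytosolic carbonic anhydrase of oligodendrocytes, and Apod a lipid-binding lipocalin.

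The files hold 5220 to 8095 barcodes per library, where the design text estimates 5700 to 8100 nuclei. After filtering, 33008 nuclei remained, with medians of 1445 to 5310 UMIs per nucleus by library. Knockout replicate 1 stands apart: it was counted with Cell Ranger 7.0.0 and the other 5 libraries with 6.1.2, and it held 51317961 of the UMIs against 11493087 to 17835287 in each of the others. Its nuclei were clustered separately, and the main genotype values below are given with and without it. Trem2 itself still gave UMIs in the microglia of every library. It had 1608, 1384 and 813 CPM (UMIs of the gene relative to all UMIs of the class) in wild type against 260, 668 and 432 in knockout. Every knockout library thus lay below every wild-type library. Without the allele, 3′ counts may lie outside a deleted part, so this is only a limited check of the labels. Of 32863 kept barcodes 145 occurred in more than 1 library. Nuclei were assigned to classes from clusters by marker genes that include none of the 7 genes, and 13896 nuclei stayed unnamed. The design text names 6 mice, and the labels say nothing of litters or preparation days.

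The upstream sequences of Sgk1, Il33 and Serpina3n are shown because these were the 3 members with the largest knockout-to-wild-type differences in oligodendrocytes. RefSeq entries on GRCm38.p6 were found for 6 of the 7 members; for Car2 none was used. The capitals mark the matches to 3 motifs searched on both strands: the perfect palindrome of the glucocorticoid receptor, with 3 free bases between its arms, TTCNNNGAA, the palindrome of STAT factors, and TATAAA, the TATA box. The Sgk1 windows shown, 2 of 6 in RefSeq, lie before different starts of the gene on chromosome 10, plus strand, at chr10:21993640-21993889 and chr10:21991973-21992222. The Il33 windows lie on chromosome 19, plus strand, at chr19:29924863-29925112 before the outermost start and at chr19:29945540-29945789 before a start inside the gene. The Serpina3n window is chr12:104406458-104406707, plus strand. By GENCODE M21 the Serpina3n window and the outermost Il33 window lie before their gene. Both Sgk1 windows and the other Il33 window lie inside their gene, and whether they overlap exons was not tested.
Sgk1, window with the receptor palindrome: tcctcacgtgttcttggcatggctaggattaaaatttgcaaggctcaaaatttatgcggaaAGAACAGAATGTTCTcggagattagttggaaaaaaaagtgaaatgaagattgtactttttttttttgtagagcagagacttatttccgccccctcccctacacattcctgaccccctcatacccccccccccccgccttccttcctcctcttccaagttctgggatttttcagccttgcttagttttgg
Sgk1, window with a TATA box: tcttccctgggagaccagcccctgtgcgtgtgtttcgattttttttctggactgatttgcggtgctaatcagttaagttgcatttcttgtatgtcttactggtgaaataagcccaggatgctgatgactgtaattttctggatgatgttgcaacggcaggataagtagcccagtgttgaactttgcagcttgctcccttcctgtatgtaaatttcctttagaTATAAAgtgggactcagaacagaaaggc
Il33, outermost start: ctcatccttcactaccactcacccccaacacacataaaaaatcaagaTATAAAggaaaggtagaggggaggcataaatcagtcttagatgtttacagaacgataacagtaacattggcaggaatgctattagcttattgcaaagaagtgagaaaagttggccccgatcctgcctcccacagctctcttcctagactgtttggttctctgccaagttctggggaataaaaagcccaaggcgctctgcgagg
Il33, start inside the gene: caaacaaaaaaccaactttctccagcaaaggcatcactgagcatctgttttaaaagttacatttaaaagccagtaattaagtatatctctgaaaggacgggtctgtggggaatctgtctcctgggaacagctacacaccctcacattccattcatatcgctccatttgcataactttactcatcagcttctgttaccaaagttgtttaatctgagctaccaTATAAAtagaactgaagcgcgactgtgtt
Serpina3n: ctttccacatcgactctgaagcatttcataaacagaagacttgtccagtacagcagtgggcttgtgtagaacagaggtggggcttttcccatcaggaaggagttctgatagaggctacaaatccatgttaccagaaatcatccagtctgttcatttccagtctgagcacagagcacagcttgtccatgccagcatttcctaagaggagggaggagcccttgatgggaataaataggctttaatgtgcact

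The receptor palindrome of Sgk1 began 189 bases before its transcript start, and the same 250 bases upstream held such a palindrome in 3 of 32851 RefSeq windows (0.00913%). TATAAA was present in 12.4% and TTCNNNGAA in 7.02% of all windows. The TATA box stood 28 bases before the start in the Sgk1 window with a TATA box, and 29 bases before it at the start inside Il33. In the outermost Il33 window TATAAA lay much farther off, 203 bases before the start. The Serpina3n window held none of the 3 motifs. Of the 4 Sgk1 windows not shown, 2 held none either. The outermost, at chr10:21881934-21882183, held TTCNNNGAA 223 bases before its start, and that at chr10:21994416-21994665 held TATAAA 11 bases before its start. A match describes the letters only, and 3′ counts do not tell which start a transcript used.

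By GENCODE M21 (mm10), the genes lie on 7 chromosomes: Serpina3n at chr12:104406729-104414329 (plus strand), Il33 at chr19:29925114-29960718 (plus), Klk6 at chr7:43824499-43832030 (plus), Sgk1 at chr10:21882184-21999903 (plus), Anln at chr9:22332012-22389188 (minus), Car2 at chr3:14886273-14900770 (plus) and Apod at chr16:31296192-31314808 (minus). C4b lies on chromosome 17. Their introns differ in length from 5537 bases in Serpina3n to 112817 in Sgk1. Only Anln overlaps another annotated gene on its strand, the sense intronic Gm48646, so UMIs inside that intron could belong to either.

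All 7 genes had their highest mean level in oligodendrocytes among the 7 classes that had 20 or more nuclei in each library. Levels are CPM of the UMIs summed over the nuclei of a class in a library, and they compare classes and libraries for 1 gene, not genes with each other. Classes were built from the same nuclei, so their order is a description with no test. Car2 had 1544 ± 271 CPM (SD, n = 6 libraries) in oligodendrocytes and 141 ± 40.3 CPM in astrocytes, its next class, a 10.9-fold difference. Anln had 802 ± 85.8 CPM in oligodendrocytes and 13.7 ± 21.3 CPM in microglia, its next class, where 4 libraries held 0 UMIs. Il33 had 306 ± 148 CPM against 33.5 ± 24.5 in astrocytes, Apod 1380 ± 175 against 128 ± 32.9 in microglia, and Klk6 42.6 ± 16.6 against 4.92 ± 6.13 in microglia. For these 5 genes the lowest library of oligodendrocytes lay above the highest library of the next class.

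The other two genes were less restricted. Sgk1 had 911 ± 366 CPM in oligodendrocytes, 205 ± 56.6 in microglia and 122 ± 51.7 in oligodendrocyte precursors, then 108 ± 83.0 in striatal projection neurons, 55.9 ± 40.6 in inhibitory neurons, 30.6 ± 7.43 in excitatory neurons and 14.0 ± 12.3 in astrocytes. It was higher in oligodendrocytes than in microglia in 6 of 6 libraries, but the ranges of these classes overlapped, as did those of every pair of neighbours in this order. Serpina3n was scarce throughout, with 16.8 ± 13.2 CPM in oligodendrocytes and 8.23 ± 5.70 in precursors, and was higher in oligodendrocytes in only 3 of 6 libraries, so the top rank of oligodendrocytes for Serpina3n lies within the spread. Below their top class, the ranges of neighbouring classes overlapped for all 7 genes. Oligodendrocytes held 95.6% of all Anln UMIs, 89.7% of those of Il33, 78.2% of those of Car2, 72.5% of those of Klk6 and 61.7% of those of Apod, but 39.6% of those of Serpina3n and 37.9% of those of Sgk1.

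**Figure D1:**
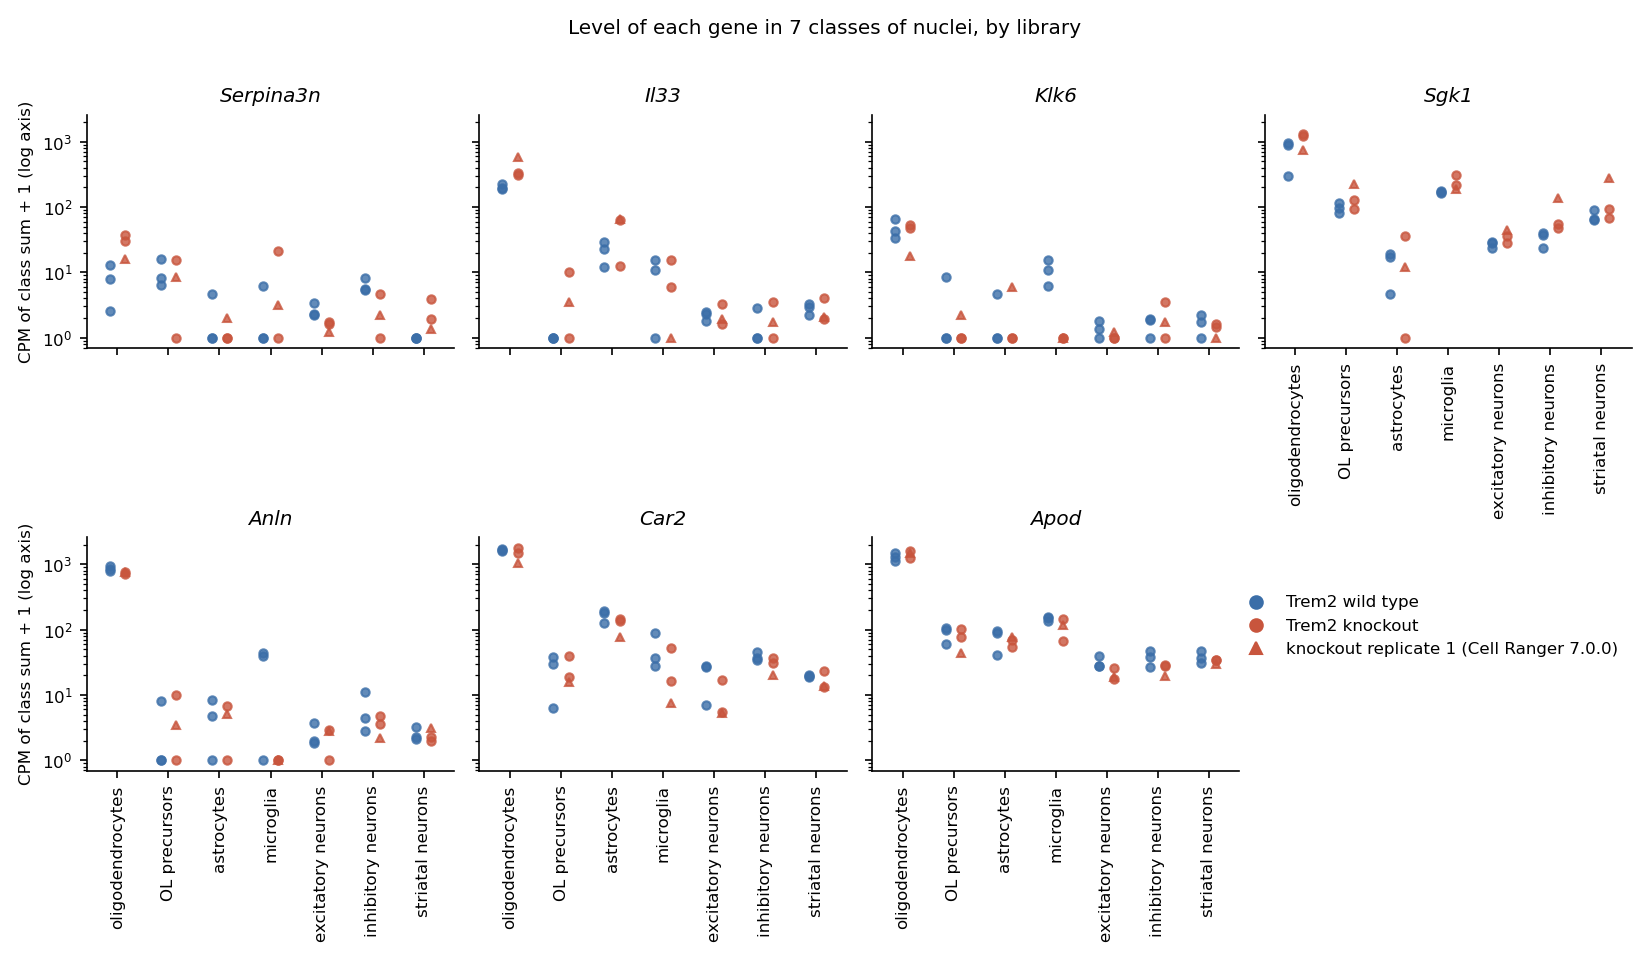
Level of each of the 7 genes (CPM of the class sum plus 1, log axis) in 7 classes of nuclei, 1 point per library, wild type in blue and knockout in red, knockout replicate 1 as a triangle. Anln and Car2 stand highest in oligodendrocytes in every library, whereas Sgk1 is spread over classes, with knockout replicate 1 at 276 CPM in striatal projection neurons against at most 93.2 CPM in the other 5 libraries.

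Marker levels in the class sums are given as a description. The clusters were named from these same markers, so they are no independent check of the assignment. In oligodendrocytes all 12 oligodendrocyte markers were detected in every library, with summed levels of 16197 to 27004 CPM. Markers of other classes in the same sums stood far lower, at 123 to 179 CPM for 9 microglial, 343 to 544 CPM for 10 astrocyte and 251 to 386 CPM for 9 excitatory neuron markers, with ranges that overlapped between genotypes. Vascular markers were scarcer and did not overlap: the 7 mural markers summed to 18.8 to 24.1 CPM in wild type and 1.71 to 8.99 CPM in knockout, and the 7 endothelial markers to 8.61 to 15.6 and 4.49 to 5.99 CPM. Their part in the results below was not tested. Knockout replicate 1 had the lowest oligodendrocyte marker sum.

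Outside the 7 classes, Apod was also abundant in fibroblasts, a small class of 291 nuclei marked by collagen genes and decorin. Its level there was 3024, 1531 and 2573 CPM in wild type against 1890, 3377 and 1215 in knockout, above the oligodendrocyte level of the same library in 5 of 6 mice. Sgk1 was likewise present in fibroblasts, at 400, 422 and 509 CPM in wild type against 335, 540 and 888 in knockout. The fibroblast sums of knockout replicate 2 rested on 3 nuclei, so no genotype comparison was made in this class.

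In oligodendrocytes (4763 nuclei, 674 to 1258 per library), Serpina3n, Il33 and Anln were the members whose genotypes did not overlap in CPM, the first 2 higher and Anln lower in knockout, yet no member passed the threshold of an adjusted p of 0.05. Over 6 libraries edgeR called 0 of 7629 tested genes (0% called), with 457 at an unadjusted p under 0.05, and DESeq2 called 0 as well. Without knockout replicate 1 it called 1 of 8028 genes (0.0125%), C4b. Groups did not overlap for 7.38% of the tested genes with knockout higher and for 2.67% with knockout lower, and without knockout replicate 1 for 14.8% and 4.29%. Of the 7 members 2 were higher and 1 was lower, and without that library 3 were higher, with Sgk1 added, and 1 was lower. Serpina3n is among the higher members although it fell below the count filter of the fit over 6 libraries, and so is not among the 7629.

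Serpina3n had 4, 7 and 1 UMIs in the oligodendrocytes of wild-type replicates 1 to 3 and 33, 24 and 17 in those of knockout replicates 1 to 3. As levels these were 6.95, 12.05 and 1.57 CPM in wild type against 15.2, 35.9 and 29.1 CPM in knockout. Every knockout library lay above every wild-type library. Knockout replicate 1 had the most UMIs and the lowest level of the 3 knockouts. The knockout mean was 3.90 times the wild-type mean, and 4.74 times without knockout replicate 1. In the fit without that library the log2 fold change was 2.13 (SE 0.54) with an unadjusted p of 0.0012, rank 5 of 8028, and an adjusted p of 1 (edgeR). With no filter on low counts Serpina3n was tested over 6 libraries too, with a log2 fold change of 1.94 (SE 0.57) and an adjusted p of 0.0404 (edgeR). That setting called 471 of 19609 genes (2.40%), 469 of them higher in knockout, and without knockout replicate 1 it called 8 of 17664 (0.0453%), with Serpina3n among them at an adjusted p of 0.0376 (edgeR). DESeq2 gave 1.94 (SE 0.79) with an adjusted p of 0.999. Among these fits Serpina3n was called in the 2 edgeR fits without the filter and in none of the others.

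Shares of nuclei are compared after each nucleus was thinned to 500 UMIs, since depth differs between libraries; every oligodendrocyte had that many. At that depth 3 of 674, 5 of 709 and 1 of 722 wild-type oligodendrocytes had a Serpina3n UMI, or 0.445% (95% exact Clopper-Pearson interval 0.0919 to 1.30), 0.705% (0.229 to 1.64) and 0.139% (0.00351 to 0.769). In knockout these were 10 of 1258, 17 of 723 and 12 of 677, or 0.795% (0.382 to 1.46), 2.35% (1.38 to 3.74) and 1.77% (0.919 to 3.08). The intervals cover counting error only, and that of knockout replicate 1 overlaps all 3 wild-type intervals. The mean difference was 1.21 percentage points, with an exact permutation p of 0.1 (two-sided), the smallest that 6 libraries allow. In excitatory neurons, also thinned to 500 UMIs, 0 of 677, 978 and 578 wild-type nuclei had a Serpina3n UMI, with upper interval limits of 0.543%, 0.376% and 0.636%. In the knockouts the shares there were 0%, 0.148% and 0.297%, the last 2 on 1 nucleus each. Without thinning the excitatory shares were 0.443%, 0.409% and 0.865% in wild type against 0.226%, 0.295% and 0.297% in knockout, so the genotypes separated with knockout lower, opposite to oligodendrocytes.

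Il33 was counted 127, 113 and 122 times in wild-type oligodendrocytes and 1261, 209 and 197 times in knockout oligodendrocytes. The levels were 221, 194 and 191 CPM in wild type, a narrow range, and 581, 313 and 337 CPM in knockout. All 3 knockout libraries were higher than all 3 wild-type libraries, and knockout replicate 1 was far above the others. The log2 fold change was 1.04 (SE 0.36, unadjusted p = 0.0157, adjusted p = 0.771, edgeR), 94.4th percentile of all tested genes. Without knockout replicate 1 it was 0.56 (SE 0.22, unadjusted p = 0.0206, adjusted p = 1, edgeR), at the 95.3rd percentile. The size of the Il33 difference therefore moved from 2.03-fold to 1.61-fold of the wild-type mean CPM with 1 library, while its direction stayed.

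After thinning, 11.4%, 10.7% and 10.7% of wild-type against 24.8%, 14.1% and 14.6% of knockout oligodendrocytes had an Il33 UMI. The means were 10.9% ± 0.424 and 17.8% ± 6.03 (SD, n = 3), an exact permutation p of 0.1, which is also the p without knockout replicate 1 and the smallest either design allows. Unthinned shares were 14.0% to 16.0% in wild type against 50.0%, 22.8% and 21.6% in knockout. In excitatory neurons at most 0.443% of thinned nuclei had an Il33 UMI.

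The partners of Il33 gave no call. Its receptor Il1rl1 (ST2) had 1 UMI in all oligodendrocytes together, and Myd88, the adaptor of the receptor, was not tested. The coreceptor Il1rap had 188, 198 and 200 CPM in wild type against 557, 228 and 200 in knockout, high in knockout replicate 1 alone. Its log2 fold change was 0.80 over 6 libraries and 0.01 without that library, with adjusted p of 0.782 and 1 (edgeR).

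Klk6 had 24, 38 and 21 UMIs in wild-type against 37, 35 and 27 in knockout oligodendrocytes, or 41.7, 65.4 and 32.9 CPM and 17.0, 52.4 and 46.2 CPM. The genotypes overlapped, and the lowest level was that of knockout replicate 1. The log2 fold change was -0.37 (SE 0.42, adjusted p = 0.889, edgeR) and -0.03 (SE 0.32) without that library. Klk6 UMIs were found in 0.636% to 2.26% of thinned oligodendrocytes. Of the other kallikreins Klk5, Klk7, Klk8, Klk9, Klk10 and Klk11 and the protease-activated receptors F2r and F2rl1, none had enough counts to be tested in oligodendrocytes, and the same held for the 9 other genes of the Serpina3 family counted here.

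Sgk1 had 519, 174 and 611 UMIs in wild-type against 1641, 822 and 771 in knockout oligodendrocytes. Its level was 902, 299 and 957 CPM in wild type against 756, 1231 and 1319 CPM in knockout. The groups overlapped over 6 libraries because knockout replicate 1, at 756 CPM, lay below the wild-type levels of 902 and 957 CPM. Wild-type replicate 2 lay below every knockout library. Without knockout replicate 1 the groups did not overlap. The log2 fold change was 0.54 (SE 0.44, unadjusted p = 0.247, adjusted p = 0.834, edgeR), and 0.67 (SE 0.35, unadjusted p = 0.0746, adjusted p = 1) without knockout replicate 1. Leaving out wild-type replicate 2 brought it to 0.16, so that library carries most of the value. At 500 UMIs, 34.6%, 13.5% and 36.4% of wild-type against 33.3%, 41.6% and 45.9% of knockout oligodendrocytes had an Sgk1 UMI (exact permutation p = 0.3).

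The low Sgk1 level of wild-type replicate 2 was not seen in its other classes. In precursors it had 97.3 CPM, between 80.8 and 113 CPM in the other wild-type libraries, and in microglia 164 CPM against 169 and 175. Of 12 other genes known to be induced by glucocorticoids and tested in oligodendrocytes, wild-type replicate 2 was the lowest of the 3 wild-type libraries for 5, in between for 4 and the highest for 3. Among the lowest was Errfi1, a feedback inhibitor of growth factor receptors, with 117 CPM against 259 and 269, and among the highest Fkbp5, a chaperone of the glucocorticoid receptor, with 72.3 CPM against 60.8 and 15.7. Both were picked after their values were seen.

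**Figure D2:**
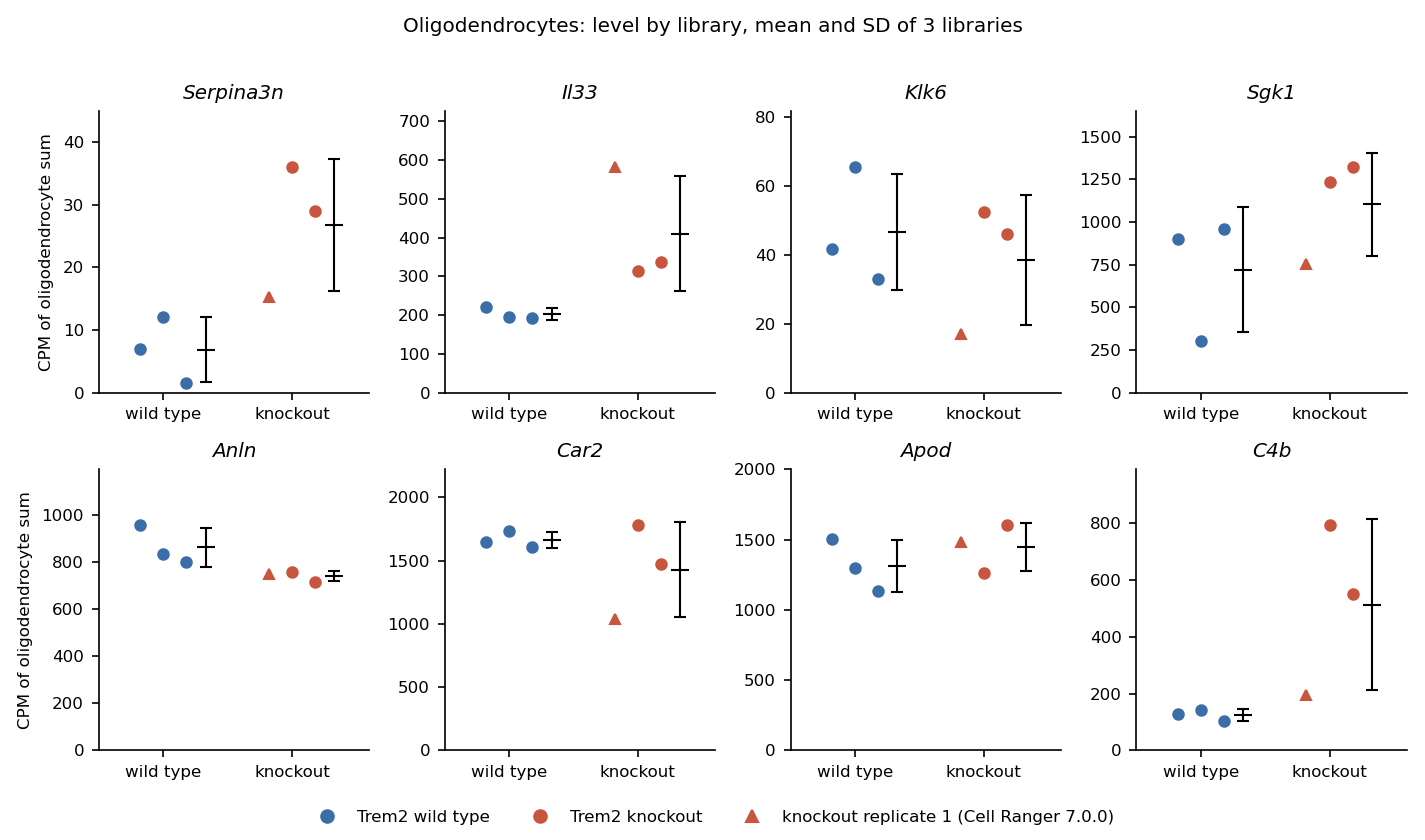
CPM of the oligodendrocyte sum by library for the 7 genes and C4b, with the mean and SD of 3 libraries per genotype as the black bar; axes start at 0 and differ between panels. Serpina3n and Il33 lie higher in every knockout library than in any wild-type library, and knockout replicate 1 (triangle) is the highest for Il33 and the lowest of the knockouts for Serpina3n, Klk6, Sgk1, Car2 and C4b.

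Of the 14 glucocorticoid-induced genes listed, 12 were tested in oligodendrocytes, 11 had a positive and 1 a negative log2 fold change, and none passed the threshold (0% of all tested genes did). Their median was 0.39, against 0.02 over all 7629 genes, of which 51.4% were positive. Without knockout replicate 1, 12 of 13 were positive, the median was again 0.39 against 0.00, with 50.2% of all genes positive, and none was called in these fits with the filter. Cebpd, a transcription factor gene, had 13.9, 17.2 and 9.40 CPM in wild type against 11.5, 49.4 and 29.1 in knockout, a log2 fold change of 1.01 (SE 0.53), and of 1.43 (SE 0.41) without knockout replicate 1, adjusted p = 0.771 and 1 (edgeR). Zbtb16, also a transcription factor gene, was carried by 1 library, with 401 CPM in knockout replicate 1 and 18.8 to 75.2 CPM elsewhere, and its log2 fold change went from 2.48 to 0.64 without it. With no filter on low counts it passed over 6 libraries (2.55, adjusted p = 6.99e-05, edgeR). Tsc22d3, a leucine zipper protein gene, went from 0.77 to 0.11, and Plin4, a lipid droplet protein gene, from 0.64 to 0.58. The list overlaps the reactive list below in Plin4 and Cdkn1a.

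**Figure D3:**
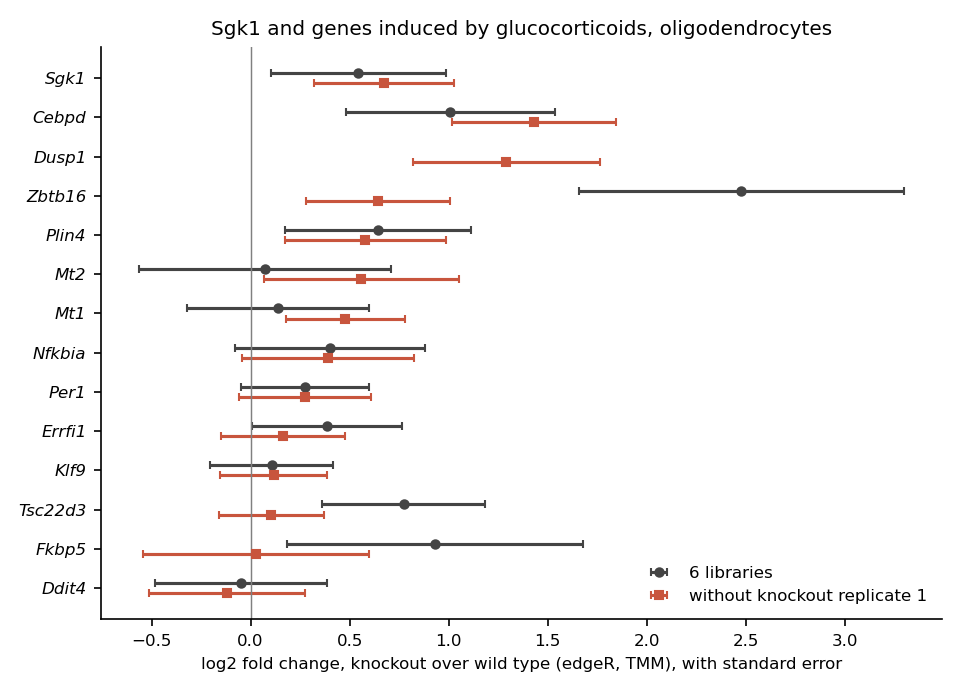
Log2 fold change, knockout over wild type, with its standard error (edgeR, TMM scale) in oligodendrocytes for Sgk1 and the tested genes of the glucocorticoid list, over 6 libraries (grey circles) and without knockout replicate 1 (red squares). Most points lie right of 0, none is called in these fits, and Zbtb16 moves from 2.48 to 0.64 when that library is left out.

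The family, activators and substrates of Sgk1 depended on the same library. All 8 tested of 9 genes had positive log2 fold changes over 6 libraries, with a median of 0.44, and 5 of 8 without knockout replicate 1, with a median of 0.02; none was called in either with the filter on low counts. Nr3c2, the mineralocorticoid receptor gene, had 150 CPM in knockout replicate 1 and 10.3 to 18.8 CPM in the others, and its log2 fold change turned from 1.91 to -0.52; with no filter on low counts it passed over 6 libraries (1.97, adjusted p = 0.0109, edgeR). Sgk3, a paralogous kinase, went from 0.77 to 0.02, Nedd4l, a ubiquitin ligase phosphorylated by Sgk1, from 0.60 to 0.11, and Sgk2 from 0.55 to 0.24.

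Anln had 550, 484 and 510 UMIs in wild-type against 1627, 506 and 418 in knockout oligodendrocytes. The levels were 956, 833 and 799 CPM in wild type against 749, 758 and 715 CPM in knockout. Every knockout library lay below every wild-type library on this scale, by a mean ratio of 0.859. On the TMM scale the groups overlapped, with 881 CPM in knockout replicate 1 against 839 in wild-type replicate 2, and the log2 fold change was -0.24 (SE 0.27, adjusted p = 0.893, edgeR), or -0.35 (SE 0.21, adjusted p = 1) without knockout replicate 1. The 4 septin genes counted as partners (Sept2, Sept4, Sept7 and Sept8, myelin filament proteins) gave 1 positive and 3 negative values, none called, from -0.28 for Sept8 to 0.32 for Sept7; without knockout replicate 1, Sept2, Sept4 and Sept7 changed sign and all 4 lay between -0.17 and 0.29.

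Car2 had 1644, 1732 and 1606 CPM in wild-type against 1035, 1778 and 1471 CPM in knockout oligodendrocytes. Only knockout replicate 1 lay clearly below the rest, and the genotypes overlapped. The log2 fold change was -0.26 (SE 0.28, adjusted p = 0.883, edgeR) and -0.15 (SE 0.21, adjusted p = 1) without that library. Of 12 other carbonic anhydrases 2 could be tested: Car14, a membrane-bound form, at -0.39 and Car11, a related protein, at 0.15, neither called.

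Apod had 1501, 1298 and 1137 CPM in wild-type against 1481, 1264 and 1601 CPM in knockout oligodendrocytes, so the genotypes overlapped. Its log2 fold change was 0.13 (SE 0.28, adjusted p = 0.949, edgeR), 0.02 with upper-quartile scaling and 0.00 (SE 0.21, adjusted p = 1) without knockout replicate 1. The other lipocalin tested, Ptgds (prostaglandin D2 synthase), varied more between mice than between genotypes, with 1453 CPM in knockout replicate 2 and 5161 in knockout replicate 3, and gave -0.21, and -0.09 without knockout replicate 1.

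**Figure D4:**
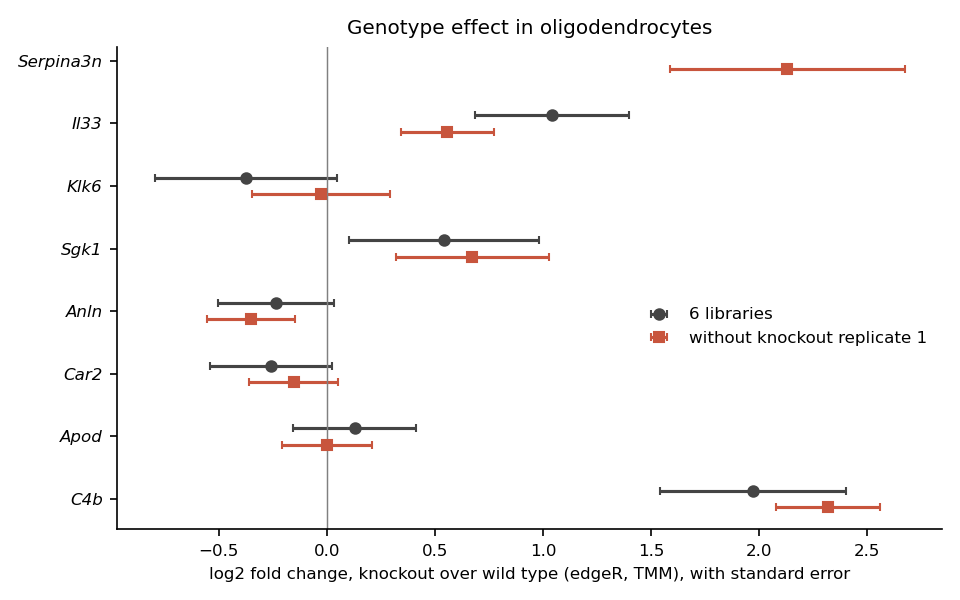
Log2 fold change, knockout over wild type, with its standard error (edgeR, TMM scale) in oligodendrocytes for the 7 genes and C4b, over 6 libraries (grey circles) and without knockout replicate 1 (red squares). Serpina3n has no value over 6 libraries because of the count filter; Il33 moves from 1.04 to 0.56, and only C4b without knockout replicate 1 is called.

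C4b, the complement gene that serves as comparator, had 129, 143 and 102 CPM in wild-type against 194, 792 and 551 CPM in knockout oligodendrocytes, with log2 fold changes of 1.97 (adjusted p = 0.771) and, without knockout replicate 1, 2.32 (adjusted p = 0.000339, edgeR). The wider list of 9 disease-associated oligodendrocyte genes includes C4b. Of these 7 were tested over 6 libraries, with 6 positive, a median of 0.64 and none called; without knockout replicate 1, 8 of 8 were positive, with a median of 0.51, and C4b alone was called. H2-D1, a class I antigen presentation gene, had 62.5, 49.9 and 25.1 CPM in wild type against 57.1, 64.4 and 198 in knockout, high in knockout replicate 3 alone, with log2 fold changes of 1.15 and 1.39 (adjusted p = 0.771 and 1, edgeR). With no filter on low counts H2-D1 had 1.38 and an adjusted p of 0.0118 without knockout replicate 1, and C4b had 2.01 and an adjusted p of 0.000255 over 6 libraries (edgeR). Among genes of mature oligodendrocyte subtypes 2 of 7 were positive (median -0.31), and 1 of 8 without knockout replicate 1 (median -0.10); Hopx had -0.98 and -0.97, and none was called with the filter on low counts. Without the filter Grm3, which was high in knockout replicate 1 alone, passed over 6 libraries (2.34, adjusted p = 0.000516, edgeR), and leaving that library out gave -0.11 with the filter.

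In oligodendrocyte precursors 2 members had enough counts to be tested. Sgk1 had 113, 97.3 and 80.8 CPM in wild type against 222, 90.8 and 126 CPM in knockout, a log2 fold change of 0.86 (SE 0.48, adjusted p = 0.698, edgeR) that was 0.13 without knockout replicate 1. Apod gave -0.27 and -0.07. No gene was called (0 of 3244, 0%, with 217 at an unadjusted p under 0.05), and no member separated the genotypes in CPM (background 4.65% higher and 4.69% lower, and 12.5% and 6.97% without knockout replicate 1). Il33 and Anln were almost absent, with at most 2 UMIs in any library's precursors.

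In astrocytes Car2 and Apod could be tested. Car2 had 126, 176 and 191 CPM in wild type against 76.0, 137 and 144 CPM in knockout, with overlap, and log2 fold changes of -0.57 (SE 0.37, adjusted p = 0.647, edgeR) and -0.40 without knockout replicate 1. After thinning its share was lower in every knockout library, at 3.99% ± 1.57 against 7.95% ± 0.992 (SD, n = 3, exact permutation p = 0.1, the smallest possible), but the mean shares were 4.34% and 4.97%, with overlap, at 300 UMIs per nucleus, and 17.8% and 17.4% without thinning. Apod gave -0.10 and -0.44. Il33 had 11.1, 22.0 and 28.4 CPM in wild-type against 64.9, 63.0 and 11.5 CPM in knockout astrocytes, resting on 64, 6 and 2 UMIs in the latter, and the groups overlapped. Serpina3n, which in other settings is a marker of reactive astrocytes, had 1 UMI each in wild-type replicate 1 and knockout replicate 1 and 0 in the other 4 libraries, where 3 UMIs would be 10.99 to 31.5 CPM. No gene was called in astrocytes (0 of 4258, 0%, 361 at an unadjusted p under 0.05), none of the 7 members separated the genotypes in CPM (7.49% of tested genes did with knockout higher and 3.59% with knockout lower, and 17.9% and 6.06% without knockout replicate 1), and of 11 reactive astrocyte genes listed 1 was tested.

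Whether the genotype effect differed between classes was tested directly. Between oligodendrocytes and astrocytes the difference passed the threshold for 6 of 9367 genes (0.0641%), none of them a member, and without knockout replicate 1 for 2 of 8420 (0.0238%). Between oligodendrocytes and precursors it passed for 0 of 9728 genes (0%, 418 at an unadjusted p under 0.05). Every tested member had an adjusted p of 1 in both tests (edgeR). For Il33 the difference of log2 fold changes was -0.05 (SE 0.42) against astrocytes, and for Sgk1 0.29 (SE 0.68).

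In microglia Sgk1 had 175, 164 and 169 CPM in wild type against 191, 314 and 218 CPM in knockout, on 17 to 89 UMIs per library. All knockout libraries lay above all wild-type libraries, as they did for 6.18% of the genes tested in microglia, and for 12.5% without knockout replicate 1. The log2 fold change was 0.48 (SE 0.32, adjusted p = 0.801, edgeR) and 0.56 (SE 0.30, adjusted p = 0.876) without knockout replicate 1. No gene was called in microglia over 6 libraries (0 of 3995, 0%, 254 at an unadjusted p under 0.05). Without knockout replicate 1 edgeR called 4 of 4433 (0.0902%), with Trem2 itself among them and no member. Klk6 separated in the other direction on 4 UMIs in all, with 2, 1 and 1 in wild type and 0 in each knockout library, where 3 UMIs would be 6.44 to 15.2 CPM; knockout was lower for 4.58% of tested genes, and for 7.53% without knockout replicate 1. So 1 of the 7 members was higher and 1 lower in knockout microglia without overlap. Klk6 was below the count filter there, so it is not among the tested genes of these shares.

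In neurons the highest Sgk1 level of each class was that of knockout replicate 1. In striatal projection neurons its level was 276 CPM there and 62.3 to 93.2 CPM in the other 5 libraries, and the log2 fold change of 1.19 became -0.05 without it. In excitatory neurons 0.62 became 0.14, and the groups overlapped. In inhibitory neurons the genotypes separated with and without that library: wild type had 22.7 to 39.1 CPM, and knockout had 136 CPM in replicate 1 against 46.7 and 54.2 CPM in the others. The knockout mean was 2.41 times the wild-type mean, and 1.54 times without knockout replicate 1; the fitted log2 values were 1.47 and 0.44. None of these passed the threshold (edgeR adjusted p of 0.639 to 0.753 over 6 libraries). Knockout was higher without overlap for 7.72% of the genes tested in inhibitory neurons, and for 18.6% without knockout replicate 1.

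Serpina3n and Apod also separated in neurons. Serpina3n had 3, 4 and 5 UMIs in wild-type against 1, 2 and 1 in knockout excitatory neurons, a mean of 1.66 against 0.538 CPM (0.693 without knockout replicate 1). In inhibitory neurons it had 5 UMIs in each wild-type library against 5, 3 and 0 in knockout, a mean of 5.33 against 1.64 CPM (1.85 without knockout replicate 1). Both are opposite in direction to oligodendrocytes and rest on 0 to 5 UMIs per library. In striatal projection neurons Serpina3n had 0 UMIs in all wild-type libraries against 1, 6 and 3 in knockout, or 0.354 to 2.88 CPM. In these 3 classes Serpina3n was below the count filter, so it is not among the tested genes of the shares below. With no filter edgeR gave adjusted p of 0.748, 0.691 and 0.786. Apod had 26.7, 38.4 and 26.4 CPM in wild-type against 17.9, 24.6 and 16.7 CPM in knockout excitatory neurons, a log2 fold change of -0.51 (adjusted p = 0.716, edgeR). So 2 of 7 members were lower in excitatory neurons, where 3.14% of tested genes were lower and 7% higher (4.47% and 18.2% without knockout replicate 1). In inhibitory neurons 1 member was higher and 1 lower, with 2.93% of tested genes lower (4.24% without that library). In striatal projection neurons 1 member was higher, with 9.11% of tested genes higher and 2.25% lower (21.9% and 3.43%).

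Summed over all nuclei, where fewer cells of a type and less RNA per cell cannot be told apart, Il33 gave 1.08 and 0.63, Sgk1 0.79 and 0.55 and Serpina3n 0.53 and 0.79 with and without knockout replicate 1, and 0 of 16425 genes (0%) were called.

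Knockout replicate 1 did not move all members one way. In oligodendrocytes its level was 1.79 times the mean of the other 2 knockout libraries for Il33, 1.03 times for Apod and 1.02 times for Anln, and 0.637, 0.593, 0.468 and 0.346 times for Car2, Sgk1, Serpina3n and Klk6. Il33 has 32719 intron bases, Apod 16040, Anln 48114, Car2 12076, Sgk1 112817, Serpina3n 5537 and Klk6 6019. The listed genes that stood highest in this library have long introns, 236581 bases in Grm3 at 11.2 times, 339097 in Nr3c2 at 11.2 times, 176643 in Zbtb16 at 6.93 times and 137054 in Il1rap at 2.60 times; these 4 were chosen after their values were seen. The part of the software version, of counted introns or of depth in these ratios was not tested. Within this library, whose nuclei were clustered on their own without the 7 genes or C4b, oligodendrocytes formed a cluster of 898 and a cluster of 360 nuclei. Il33 was higher in the larger one (702 against 362 CPM), and Apod (2324 against 1016 CPM) and Anln (1128 against 541 CPM) in the smaller one, while Car2 was alike (1020 and 1061 CPM).

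Within oligodendrocytes most pairs of members shared a number of nuclei near the product of their shares. Counts of nuclei with both genes were compared, at 500 UMIs per nucleus, with the count expected from each library's shares. Serpina3n and C4b were found together in 23 nuclei against 8.56 expected, a ratio of 2.69. Wild-type libraries had 1, 1 and 0 such nuclei against 0.214, 0.289 and 0.0471 expected, with ratios of 4.68, 3.46 and 0. Knockout libraries had 4, 9 and 8 against 0.914, 4.84 and 2.25 expected, with ratios of 4.38, 1.86 and 3.55. The higher counts in knockout thus went with higher expected counts. Klk6 went with Apod in 44 nuclei against 27.2 expected (1.62), with a ratio above 1 in 6 of 6 libraries, and with Sgk1 in 9 against 19.6 (0.459), with a ratio below 1 in 6 of 6. Il33 and Anln shared 182 nuclei against 215 expected (0.846). Il33 and C4b shared 102 against 89.7 expected (1.14). The ratio was below 1 in the 3 wild-type libraries, on only 4, 3 and 3 nuclei against 5.48, 4.39 and 3.63 expected. It was above 1 in the 3 knockout libraries, on 33, 38 and 21 nuclei against 28.5, 29.1 and 18.6. Car2 and C4b shared 326 nuclei against 289 expected (1.13), with a ratio above 1 in 6 of 6 libraries. The ratio with C4b was 1.42 for Klk6, on 11 nuclei, 1.04 for Apod, 0.995 for Anln and 0.945 for Sgk1. The remaining pairs of the 5 more abundant members had ratios between 0.955 and 1.11. Nuclei of a library are not replicates, so these ratios carry no test.

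**Figure D5:**
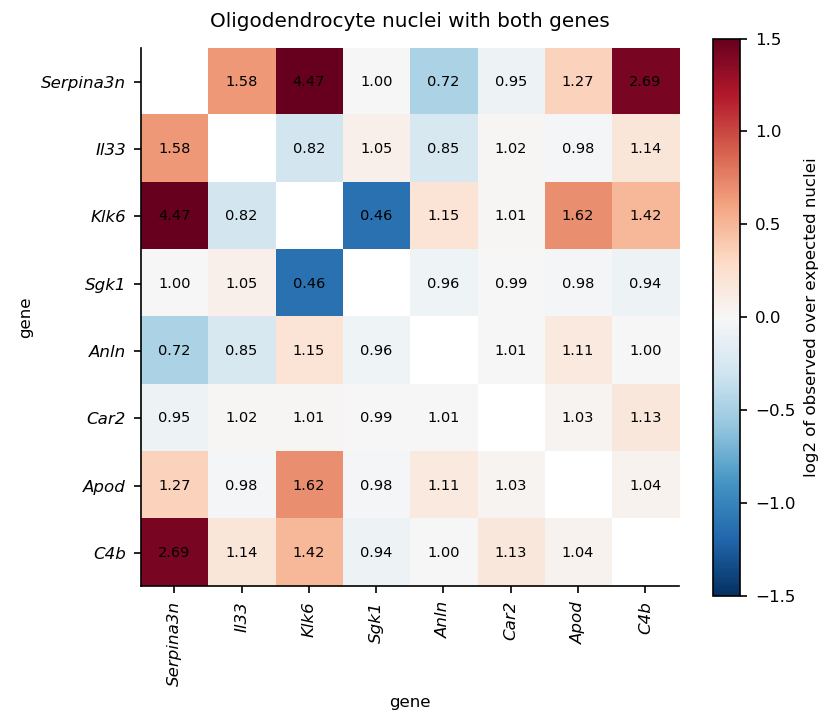
Oligodendrocyte nuclei with at least 1 UMI of both genes, observed over expected, summed over 6 libraries after thinning to 500 UMIs; both axes list the 7 genes and C4b, colour is the log2 of the ratio and the number in a cell the ratio. Serpina3n with C4b stands at 2.69 and Klk6 with Sgk1 at 0.46; pairs with Serpina3n or Klk6 rest on few nuclei, and Sgk1 and Car2 are near 1 with the other abundant genes.

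Genes with the most similar pattern over the 42 class sums (7 classes in 6 libraries, log2 of CPM plus 10, 11429 genes compared) were mostly genes of myelin and oligodendrocytes. The points of a class share that class and those of a library its depth. Of the genes named here, Ermn, Cldn11, Mal and Mbp were also markers that named the oligodendrocyte clusters. Matches to them are therefore not independent of the class names. Anln was most like Ermn (Pearson r = 0.978), which encodes ermin, a cytoskeletal protein of oligodendrocytes, and also like A530053G22Rik and Ankub1. Apod was like the myelin genes Cldn11 (0.971) and Mal (0.955), Klk6 like Hapln2 (0.955), Tmem125 and Anln, Car2 like Gpr37 (0.943), Plin3 and Tmbim1, and Il33 like Olfml1 (0.941), Car2 and Mbp. Sgk1 followed Dock10 (0.880), Ube2d1 and Zdhhc20, and Serpina3n, on 156 UMIs, reached 0.724 with Pdlim2, then Zfp276 and Dnajc24. These correlations describe class levels and carry no test.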

How the data were processed

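Nuclei of the frontal lobe of 6 mice were profiled with 3′ v3.1 droplet libraries, per the labels' protocols. The authors deposited raw UMI counts per gene and nucleus, made with Cell Ranger on mm10, per the submitters' processing notes. Per the file headers its version was 7.0.0 for knockout replicate 1 and 6.1.2 for the others. The sources used here do not say whether introns were counted, nor on which annotation. Nuclei with fewer than 200 genes or over 5% mitochondrial UMIs were removed, as were 1273 predicted doublets, leaving 33008 of 39752. Nuclei were clustered (scanpy 1.11.5), knockout replicate 1 apart, without the 7 genes and C4b, and clusters named from markers, so names are rebuilt ones. UMIs were summed per library and class, and genotypes compared with edgeR 4.0.16 (quasi-likelihood, TMM, filterByExpr, Benjamini-Hochberg, threshold 0.05), with DESeq2 1.42.0 as an alternative. CPM are a gene's UMIs over all UMIs of the class sum. Shares of nuclei used an exact permutation test. Only the edgeR fit of oligodendrocytes over 6 libraries, with the filter on low counts, was run on simulated counts. The other fits were not.

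The members and lists were chosen with earlier results of these data known. Besides the 7 genes and C4b, the named genes are the 3 most alike per member and, of each list, up to 4 with the smallest p; Errfi1, Fkbp5, Il1rl1 and Myd88 fall outside that rule, and some genes it names are not reported here. Errfi1, Fkbp5, Il1rl1 and Myd88, the thresholds for naming clusters, and the fits that leave out the 7.0.0 library and also the filter or edgeR were chosen after seeing the data. The result is a comparison of 3 with 3 mice, and p-values measure the spread between these libraries. Total UMIs per library were 11493087 to 51317961. Intervals and floors cover counting error only.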

Additional observations from a re-analysis of the deposited data

Results flagged for a closer look

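Of 32 levels of a member in a class, 6 had a library that stood apart from the other 5 by Dixon's criterion, which chance alone gives in about 1 in 20 groups; 4 of the 6 were knockout replicate 1. For Il33 in oligodendrocytes that library had 580.85 CPM and the others 191 to 337. For Sgk1 it had 135.98 CPM in inhibitory neurons (others 22.7 to 54.2), 221.88 CPM in oligodendrocyte precursors (others 80.8 to 126) and 275.74 CPM in striatal projection neurons (others 62.3 to 93.2). Sgk1 also stood apart in microglia of knockout replicate 2, at 313.57 CPM (others 164.5 to 218), and in fibroblasts of knockout replicate 3, at 887.5 CPM on 38 UMIs (others 335 to 540).

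Outside the named classes, Apod reached 3766.3 CPM in an unnamed cluster of 47 nuclei, on 217 UMIs and with a UMI in 89.4% of its nuclei. Of these nuclei 29 came from wild-type replicate 1 and 18 from knockout replicate 2. Wild-type replicates 2 and 3 and knockout replicate 3 gave 0. Knockout replicate 1 was clustered apart and could not be in it. Another unnamed cluster, with Lgr5 and Vipr2 as its top genes, also came mostly from these 2 libraries. It had 1070 and 691 of their nuclei, against 33, 90 and 46 of wild-type replicates 2 and 3 and knockout replicate 3. The oligodendrocyte levels of Apod in wild-type replicate 1 and knockout replicate 2 were 1501 and 1264 CPM. In the cluster of 47 nuclei Serpina3n had 8 UMIs (139 CPM), the same number as Car2. The genotype effect on C4b, the comparator, differed between oligodendrocytes and astrocytes by 2.3806 on the log2 scale (edgeR, class by genotype term); no member differed by that test.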

How the results depend on the processing

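No paired analysis was possible because the replicate numbers follow accession order and pair no mice. With no filter on low counts the calls rose from 0 to 471 in oligodendrocytes, 492 in astrocytes, 448 in precursors and 209 in microglia; the cause was not tested. Without the 7.0.0 library and the filter they were 8 in oligodendrocytes and 3 in astrocytes, and without that library DESeq2 called 1 in oligodendrocytes. DESeq2 called 2 genes over all nuclei. The oligodendrocyte to astrocyte difference had 1 call when nuclei were chosen by a marker gate, and 2 to 55 with 1 library left out, against 6; the difference to precursors then had 0 to 36, microglia 0 to 4 and oligodendrocytes 0 to 1.

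With 1 library left out, log2 fold changes crossed 0 for Apod in astrocytes (-0.442 to 0.0265), Sgk1 in striatal projection neurons (-0.0463 to 1.58), and in oligodendrocytes Car11 (-0.0215 to 0.385), Grm3 (-0.11 to 2.80), Nr3c2 (-0.52 to 2.42), Ptgds (-0.82 to 0.11), Sept2 (-0.79 to 0.29), Sept4 (-0.23 to 0.10) and Sept7 (-0.0025 to 0.48). Without the 7.0.0 library and the filter the values that turned were Apod -0.0084, Grm3 -0.12, Il1rap -0.0054, Nr3c2 -0.53, Sept2 0.28, Sept4 0.088 and Sept7 -0.013; with DESeq2 they were Grm3 -0.11, Nr3c2 -0.52, Sept2 0.29 and Sept4 0.10. Il33 in oligodendrocytes stayed between 0.56 and 1.26 when a library was left out. For Serpina3n the log2 ratio of mean oligodendrocyte CPM, knockout over wild type, stayed between 1.49 and 2.65. That ratio is not a fitted value and carries no test. Upper-quartile scaling moved the median of all genes in oligodendrocytes from 0.016 to -0.091, and the members kept their direction under it.

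Differences of shares in percentage points turned without thinning for Anln (0.0671 in astrocytes, 3.59 in oligodendrocytes), Apod (2.14 and 5.03), Car2 (0.348 and 0.584), Klk6 (0.183 in oligodendrocytes), Serpina3n (-0.0698 in astrocytes) and Sgk1 (0.866 in astrocytes). At 300 UMIs they turned for Apod (0.0867 in astrocytes, 1.57 in oligodendrocytes), and with the marker gate for Klk6 (0.298 in oligodendrocytes), Serpina3n (-0.267 in astrocytes) and Sgk1 (1.22 in astrocytes). With 1 library left out they crossed 0 for Anln (-0.470 to 0.0145), Apod (-2.13 to 0.565) and Sgk1 (-0.630 to 0.242) in astrocytes, and for Apod (-2.97 to 1.90) and Klk6 (-0.662 to 0.0510) in oligodendrocytes. Depth limits Serpina3n most, with 1 to 7 UMIs in a wild-type oligodendrocyte sum.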
